A study of Mus musculus with 9 samples.

Results

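The comparison described here set an acute myeloid leukaemia line 24 h after doxycycline was washed away against the same line kept in the drug. It rests on 6 of the series' 9 libraries, 3 labelled ON and 3 labelled OFF 24 hrs (OFF24 below), chosen by their sample titles. The cells are a single mouse line made by putting 2 retroviral vectors into foetal liver cells. One vector, MSCV-Luc2-IRES-MLL-AF9, makes luciferase and the MLL-AF9 fusion all the time, in both groups. The other, TRE-tight-DsRED-IRES-FLT3-ITD, makes a red fluorescent protein and FLT3-ITD only while doxycycline is present. ON cells stayed in 1 µg/mL doxycycline (0 h of withdrawal), and OFF24 cells were washed and grown for 24 h without it, so that the drug itself left together with the transgene. The medium of both groups held added L-asparagine. The remaining 3 libraries, taken at 48 h (OFF48), shared in the estimate of the spread and are used only to place the 24 h level beside a later one. Whether libraries of 1 group are separate cultures or repeats of one is not in the labels. The spread behind every p-value is that between these samples, and it may be technical.

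FLT3 is a receptor tyrosine kinase of early blood progenitors. The internal tandem duplication lets it signal without ligand, through the RAS and ERK cascade, through PI3K and AKT, and through STAT5. These pathways are known to hold up growth, ribosome production and survival, and MLL-AF9 is known to hold blood progenitors in an immature state by keeping HOXA genes active.

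Library totals of the 6 libraries ran from 2420918 counts in OFF24 replicate 1 to 4038456 in ON replicate 2. The libraries were made with a 3' mRNA kit, which reads transcript ends. Values below are CPM, counts scaled to library size with TMM factors, given for replicates 1, 2 and 3 in that order, and since 3' counts are not scaled by transcript length, levels of different genes are not ranked. Endogenous Flt3 had 6, 5 and 3 counts in ON and 4, 4 and 10 in OFF24, too few for the test. These reads come from the end of the mouse gene, which a vector transcript need not contain, so they check neither the transgene nor its loss. The 12 myeloid markers were all tested and 10 rose. Their summed level was 2127 to 2298 CPM in ON and 4294 to 4480 in OFF24. Markers of other cell types that foetal liver holds were low. The 14 lymphoid markers in the table summed to 1.23 to 2.5 CPM in ON and 2.68 to 5.02 in OFF24, with Cd8a and Ncr1 at 0 counts in all 6 libraries, and the 12 erythroid ones to 0.255 to 0.716 and 0.418 to 1.57, with 7 at 0, beta-globins Hbb-bs and Hbb-bt among them. The 12 hepatocyte and stromal markers summed to 2.55 to 3.19 and 4.71 to 6.69 CPM, with albumin (Alb) at 0, and the 14 mast cell, basophil and megakaryocyte markers to 17.2 to 21.5 and 27.6 to 33.4 CPM, with Cpa3 and Fcer1a at 0. Each of these sums was higher in OFF24, and its part in the results below was not tested. In the last set 1 of 2 tested markers rose. Its member Mcpt8 read 4.59, 7.12 and 5.37 CPM in ON and 15.5, 19.8 and 15.2 CPM in OFF24.

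Within 24 h 3603 of 10215 tested genes passed edgeR's quasi-likelihood test at a Benjamini-Hochberg adjusted p of 0.05. Of all tested genes 17.8% rose (1822) and 17.4% fell (1781), while 4.4% rose at least 2-fold (449) and 4.33% fell at least 2-fold (442). The middle of the distribution hardly moved: the median log2 fold change was 0.031, with quartiles at -0.31 and 0.36. Log2 fold changes below carry a standard error (SE) derived from that test. The 15 largest rises that met the naming conditions included Lyz2, Mpo, Fcnb, F13a1 and Csf1r, genes of granulocytes and monocytes, beside genes with no such role such as Gria3 and Usp11. The 15 largest falls included the transcription factors Etv4, Etv5 and Egr1, the amino acid genes Slc7a5 and Cth, the inhibitory receptor Lilrb4a and the membrane-anchored carbonic anhydrase Car4.

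Lyz2, the lysozyme M gene of macrophages and granulocytes (chromosome 10, 117277331 to 117282321), stood at 85.2, 81.8 and 99.1 CPM in ON and at 632, 604 and 544 CPM in OFF24. The log2 fold change was 2.74 ± 0.16 (SE, edgeR adjusted p = 8.51e-09), the largest rise among named genes of at least 10 CPM whose groups did not overlap. Its neighbour Lyz1 went from 13.8, 16.0 and 16.8 CPM to 99.9, 91.0 and 79.2 CPM. The 3' ends of the pair are near-identical, so how reads divide between them is uncertain, although both lay far above their ON range in every OFF24 library. F13a1, the coagulation factor XIII A subunit of monocytes, went from 3.06, 4.42 and 2.86 CPM to 24.7, 18.5 and 19.4 CPM (log2 2.54 ± 0.24, edgeR adjusted p = 2.55e-07).

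Several rises had no place in the lists of the report. Osbpl3, an oxysterol-binding protein relative, read 12.8, 12.8 and 14.7 CPM in ON and 71.1, 61.2 and 73.3 CPM in OFF24. Gria3, a subunit of the AMPA glutamate receptor, read 13.5, 13.5 and 15.7 against 71.9, 55.9 and 63.7 CPM. The log2 changes were 2.36 ± 0.15 and 2.17 ± 0.14, and no library of one group reached the other, which the naming conditions required. Il15, the gene of a cytokine that acts on lymphocytes, rose from 5.36, 2.7 and 3.58 CPM to 16.7, 21.7 and 16.7 CPM. The deubiquitinase Usp11 (log2 1.90 ± 0.24) and Gas7, a growth arrest-specific gene (1.95 ± 0.25), were the other rises of this size outside any list, together with Hist1h3d and the small nuclear RNA Rn7sk.

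Car4 (chromosome 11, 84957786 to 84966044) had the second largest fall among the named genes, after Etv4. It stood at 1127, 954 and 1003 CPM in ON and at 69.4, 69.7 and 61.4 CPM in OFF24. That is a log2 fold change of -3.95 ± 0.14 (edgeR adjusted p = 3.21e-13), and the level was lower again at 48 h, at 4.55 CPM on average. Carbonic anhydrases interconvert carbon dioxide and bicarbonate, and a second membrane-bound member, Car12, went from 12.5, 13.3 and 12.9 CPM to 2.51, 2.83 and 2.98 CPM. The lactate and pyruvate carrier Slc16a1 read 36.0, 37.3 and 26.1 CPM in ON and 12.1, 10.4 and 11.6 CPM in OFF24. In the list of carbonic anhydrases and pH regulators that holds all of these, 6 of 15 tested members fell and 4 rose, so the list had no common direction. The shares were 40% lower and 26.7% higher, against 17.4% and 17.8% of all genes. The median log2 change of the list, 0.08, became -0.43 when genes under 10 CPM were left out.

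**Figure D1:**
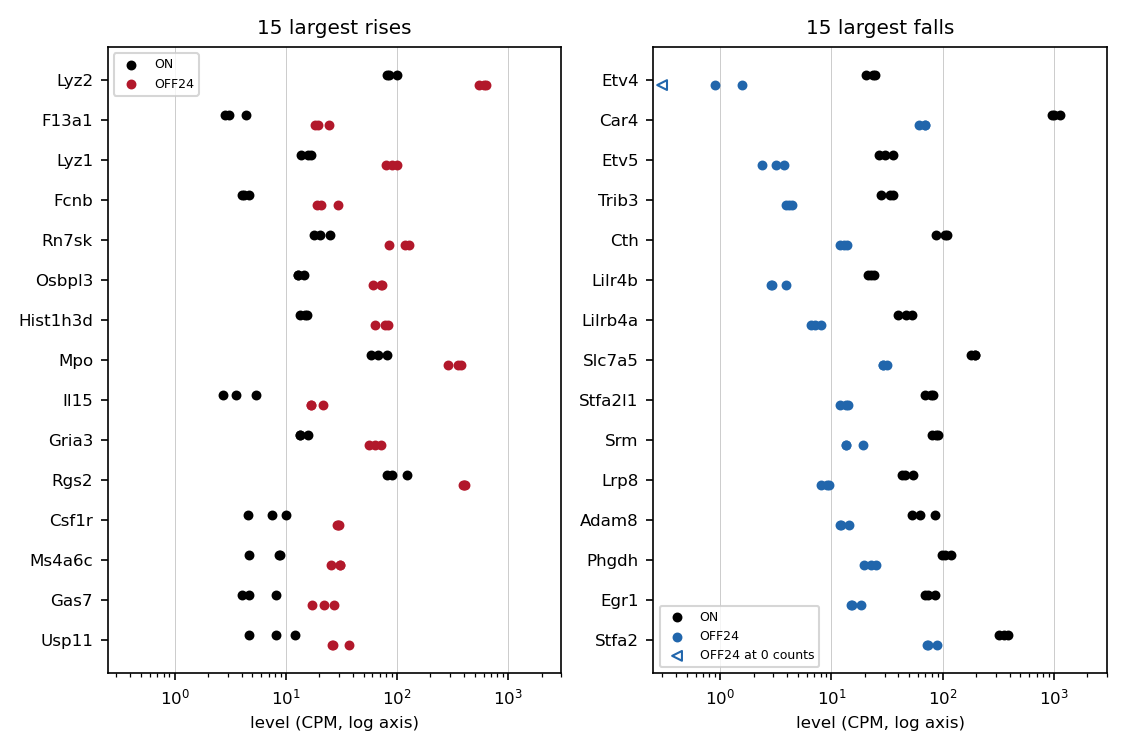
Level in CPM (log axis) of the 15 largest rises (left) and the 15 largest falls (right) that met the naming conditions, with a point for each ON library (black) and each OFF24 library (red or blue). The groups do not overlap for any of these genes, which the choice required, and the open triangle marks a library in which Etv4 had 0 counts.

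Genes of ERK feedback and the PEA3 family fell more often than they rose, and ERK activity itself was not measured. Of 19 tested genes of ERK feedback and the PEA3 family, 10 fell and 2 rose, with a median log2 fold change of -0.56 beside 0.031 for all genes. Etv4 and Etv5, PEA3-type ETS factors induced by ERK, were 2 of the 3 largest falls among the named genes. Etv4 (chromosome 11, 101769742 to 101785371) read 24.7, 23.6 and 20.4 CPM in ON and 0, 1.57 and 0.894 CPM in OFF24, a log2 change of -4.63 ± 0.38 (edgeR adjusted p = 8.51e-08). That size is loosely fixed by so few counts. It was -5.36 without OFF24 replicate 2 and -5.64 in the authors' deposited log2 values. Etv5 read 35.5, 27 and 30.4 CPM against 3.76, 3.14 and 2.38 CPM. The ERK phosphatase Dusp6 read 62.7, 53.1 and 67.3 CPM against 16.7, 20.1 and 24.1 CPM. Fosl2, an AP-1 subunit of the same list, went the other way, from 25.3, 28.2 and 23.3 CPM to 51.8, 58.7 and 59.0 CPM (log2 1.14 ± 0.13, edgeR adjusted p = 2.16e-06).

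Egr1, an immediate-early gene of growth factor signalling, and Klf2, a Krüppel-like factor, fell as well. Egr1 read 74.0, 69.5 and 84.5 CPM in ON and 18.4, 15.4 and 14.9 CPM in OFF24 (log2 -2.23 ± 0.24, edgeR adjusted p = 8.57e-06). Klf2 read 182, 173 and 128 CPM against 48.9, 49.3 and 52.4 CPM. Neither gene had an OFF24 library within the ON range, which their choice by result favoured.

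The JAK and STAT list was mixed, with 8 of 27 tested members lower, 5 higher and 14 not called, and a median of 0.03. The shares were 29.6% lower and 18.5% higher, against 17.4% and 17.8% of all genes. The falls included genes that STAT5 is known to induce. Pim3 and Pim1, serine/threonine kinases, read 182, 203 and 159 against 54.3, 62.5 and 63.4 CPM, and 462, 364 and 390 against 166, 174 and 185 CPM. The feedback inhibitor Cish read 91.6, 73.0 and 91.2 CPM in ON and 36.4, 36.1 and 35.4 CPM in OFF24 (log2 -1.24 ± 0.14, edgeR adjusted p = 2.44e-06). All 3 of these genes were lower again at 48 h, and at that step 21.1% of all tested genes passed the test in either direction. Pim1 averaged 50.1 CPM at 48 h (log2 -1.81 ± 0.13 against OFF24, edgeR adjusted p = 5.82e-09) and Cish 8.38 CPM (log2 -1.96 ± 0.20, edgeR adjusted p = 8.69e-07). The feedback inhibitor Socs2, read at 11.7, 12.5 and 16.1 CPM in ON and 5.43, 5.65 and 3.87 CPM in OFF24, shares its 3' end with 2 other annotated genes and is uncertain to that extent.

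In the PI3K, AKT, FOXO and mTORC1 list, 14 of 33 tested members rose and 2 fell (median 0.35). The insulin receptor Insr rose (31.9, 35.1 and 40.4 to 48.5, 58.4 and 59.9 CPM), as did the related Igf1r (36.2, 37.8 and 32.6 to 54.3, 60.9 and 56.0 CPM). Rptor, the scaffold of mTORC1, read 11.5, 9.09 and 8.59 CPM in ON and 20.9, 26.4 and 19.4 CPM in OFF24. Txnip, an inhibitor of glucose uptake and of thioredoxin, was among the largest gains in reads, from 528, 578 and 536 CPM to 1520, 1483 and 1394 CPM (log2 1.42 ± 0.09, edgeR adjusted p = 2.54e-09). Pdcd4, an inhibitor of the translation initiation helicase that signalling through S6 kinase is known to remove, rose from 143, 155 and 160 CPM to 363, 364 and 361 CPM (log2 1.25 ± 0.09).

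The machinery of ribosome production fell almost as a whole, and the ribosomal proteins themselves did not follow. Of 64 tested nucleolar factors of ribosome biogenesis 57 fell, 38 of them at least 2-fold, 0 rose, and the median log2 change was -1.05. The share lower was 89.1%, against 17.4% of all genes. Their summed level went from 6618 to 3820 CPM. Of 78 ribosomal protein genes, by contrast, 7 rose, 2 fell and 69 were not called (median 0.10, summed level 161601 and 174184 CPM). Many ribosomal protein genes share their 3' end with other annotated genes, Rps2 with 47 and Rpl7a with 44. How reads divide between them is therefore uncertain. Nop56, a core protein of box C/D small nucleolar particles, read 174, 203 and 208 CPM in ON and 57.3, 65.6 and 60.2 CPM in OFF24. Ddx21, a nucleolar RNA helicase, read 150, 169 and 160 against 52.3, 51.2 and 54.5 CPM (log2 -1.60 ± 0.11, edgeR adjusted p = 4.6e-09). Mybbp1a, a nucleolar MYB-binding protein, read 103, 114 and 106 against 35.1, 33.0 and 33.7 CPM. Wdr43, a subunit of the small-subunit processome, read 170, 161 and 148 against 45.2, 47.4 and 57.5 CPM. In all of these every OFF24 library lay far below every ON library, and the spread within a group was small beside the gap. They were named for the smallest p in the list, a choice that favours such separation. The end of Nop56 overlaps an exon of Idh3b on the other strand and resembles 4 other annotated genes, and that of Mybbp1a overlaps Spns2 on the other strand. Since the strand setting of the counting is not given in the sources used here, some reads of these could belong to the partner.

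RNA polymerases I and III showed a narrower fall. Of 36 tested subunits and factors 11 fell (30.6%, against 17.4% of all genes) and 1 rose (median -0.13). The falls lay in Rrn3, the initiation factor of RNA polymerase I, and in subunits of RNA polymerase III. Rrn3 read 47.2, 45.7 and 55.8 CPM in ON and 25.5, 21.7 and 26.2 CPM in OFF24 (log2 -1.01 ± 0.14, edgeR adjusted p = 2.27e-05). Polr3d fell by 1.21 on the log2 scale and Polr3e by 1.17.

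The promoters of 5 genes are shown because they hold the short motifs counted further on. Each is the RefSeq window (GRCm38.p6) from 250 bases before to 50 after the annotated start, in the direction of the gene, and capitals mark matches. The matches do not overlap one another. They were picked after their matches and values were seen. Mybbp1a (chr11:72441077-72441376, plus strand) holds an E-box, CACGTG, whose first base is base 41 counted from the start. Wdr43 (chr17:71615965-71616264, plus strand) holds an E-box at base 18 and a PU.1 element, GAGGAAGT, at -35. Rrn3 (chr16:13780449-13780748, plus strand) holds E-boxes at -215 and -48, a STAT element, TTCNNNGAA, at -124, and ETS elements, CCGGAAG, at -5 and 19. Cish (chr9:107296409-107296708, plus strand) holds 2 STAT elements, at bases 1 and 12. Mpo (chr11:87793534-87793833, plus strand), one of the rises, holds a PU.1 element at -224.
Mybbp1a: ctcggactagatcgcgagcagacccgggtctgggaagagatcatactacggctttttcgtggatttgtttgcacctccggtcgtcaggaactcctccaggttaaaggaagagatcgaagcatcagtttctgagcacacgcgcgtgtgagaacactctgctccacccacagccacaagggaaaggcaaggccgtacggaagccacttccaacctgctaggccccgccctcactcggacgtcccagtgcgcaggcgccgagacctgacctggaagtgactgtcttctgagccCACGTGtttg
Wdr43: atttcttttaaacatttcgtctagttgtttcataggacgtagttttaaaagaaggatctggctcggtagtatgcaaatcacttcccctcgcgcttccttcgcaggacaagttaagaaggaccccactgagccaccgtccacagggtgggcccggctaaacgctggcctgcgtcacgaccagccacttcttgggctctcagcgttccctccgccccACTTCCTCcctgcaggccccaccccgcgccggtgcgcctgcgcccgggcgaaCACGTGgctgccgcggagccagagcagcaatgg
Rrn3: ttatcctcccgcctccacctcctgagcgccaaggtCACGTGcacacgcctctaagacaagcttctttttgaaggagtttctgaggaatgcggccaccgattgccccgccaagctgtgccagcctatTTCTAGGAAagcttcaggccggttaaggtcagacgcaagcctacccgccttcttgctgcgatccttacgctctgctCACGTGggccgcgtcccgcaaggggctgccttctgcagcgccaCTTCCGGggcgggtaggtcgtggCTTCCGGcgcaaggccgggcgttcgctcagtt
Cish: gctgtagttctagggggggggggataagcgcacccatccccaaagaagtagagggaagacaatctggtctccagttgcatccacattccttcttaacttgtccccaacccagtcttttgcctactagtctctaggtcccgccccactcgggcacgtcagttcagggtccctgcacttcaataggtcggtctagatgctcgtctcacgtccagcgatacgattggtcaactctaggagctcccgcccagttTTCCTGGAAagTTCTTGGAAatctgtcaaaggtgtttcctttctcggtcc
Mpo: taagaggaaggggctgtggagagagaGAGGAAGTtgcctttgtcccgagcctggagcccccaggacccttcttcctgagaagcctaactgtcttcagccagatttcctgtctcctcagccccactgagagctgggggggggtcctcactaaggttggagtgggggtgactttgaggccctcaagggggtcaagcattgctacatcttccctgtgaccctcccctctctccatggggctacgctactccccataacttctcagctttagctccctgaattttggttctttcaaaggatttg

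Across the 8018 tested genes with such a window, 12.4% had an E-box. The share was 22.1% (74 of 335) among genes at least 2-fold lower and 7.92% (27 of 341) among genes at least 2-fold higher. The E-box was thus the motif whose share differed most, in percentage points, between falls and rises, although most falls had none, and Mxd4, Il6ra and Bnip3 rose with one. The composite C/EBP-ATF response element, TGATGNAAT, was rare, at 0.486% of all windows, 1.79% of the falls (6 genes) and 0.293% of the rises (1 gene). The ETS element was in 23.1% of all windows, 20.6% of the falls and 11.1% of the rises. The remaining motifs, searched like these on both strands, were the CRE (TGACGTCA, in 3.92% of all windows), forkhead (GTAAACA, 3.02%), E2F (TTTCCCGC, 2.59%), sterol (TCACNCCAC, 1.37%) and interferon elements (3.69%), the palindromic C/EBP site (TTGCGCAA, 0.399%), the STAT element (8.31%) and the PU.1 element (4.17%). Forkhead elements were in 4.69% of the rises and 3.88% of the falls. The windows of rises were poorer in G and C (median 57.3%) than those of all genes (60.7%) or of falls (60.7%), and the E-box, ETS and E2F shares were not adjusted for that. No test was made of these shares, and a match is a run of letters, not evidence of binding.

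**Figure D2:**
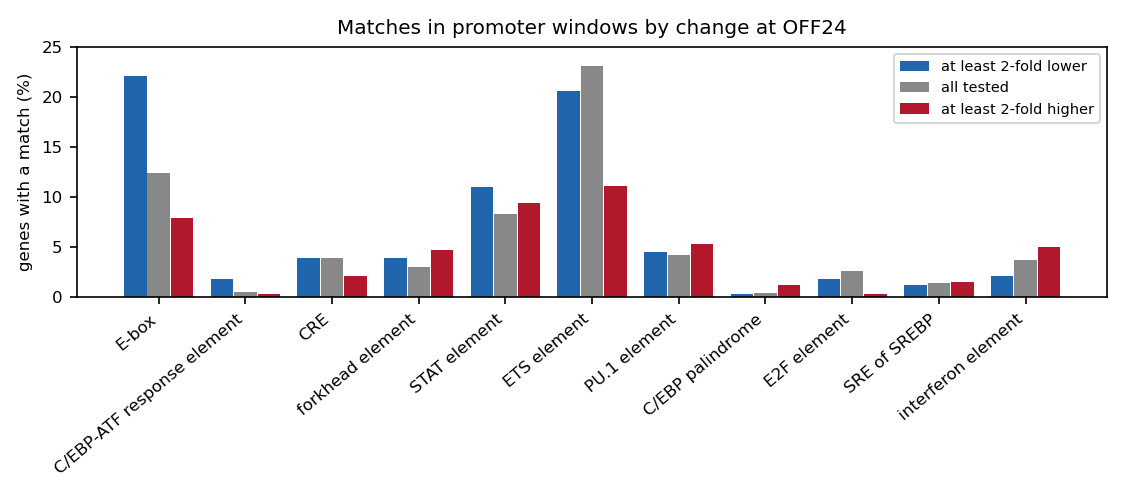
Percentage of genes with at least 1 match of each motif in the 300-base promoter window, for genes at least 2-fold lower at OFF24 (blue, 335 genes), all tested genes (grey, 8018) and genes at least 2-fold higher (red, 341). The E-box bars stand at 22.1%, 12.4% and 7.92%.

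Myc, the E-box-binding factor that drives ribosome genes, fell from 23, 26.3 and 19.0 CPM to 7.94, 9.73 and 8.04 CPM (log2 -1.41 ± 0.22, edgeR adjusted p = 7.8e-05). Mxd4 and Mxi1, relatives that compete with MYC for MAX, rose. Mxd4 read 47.4, 51.6 and 50.1 against 105, 113 and 122 CPM, and Mxi1 read 76.8, 70.3 and 81.9 against 119, 122 and 121 CPM. No library of one group reached the other for any of the 3, which were named for their small p. Of the 18 tested members of the network, 14 were called in neither direction, and the second fall, Mlx, lost its call without ON replicate 2 (log2 -0.33 there, edgeR adjusted p = 0.0587).

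Steps that follow ribosome production also fell. Of 59 tested translation factors 29 fell and 6 rose, but the summed level of the list, 29608 CPM in ON and 29576 in OFF24, hardly differed, since the gain in reads of the elongation factor Eef1a1 offset the falls (log2 0.28 ± 0.09). That small rise lost its call without ON replicate 2, ON replicate 3, OFF24 replicate 1 or OFF24 replicate 3 (edgeR adjusted p = 0.0524, 0.0527, 0.0584 and 0.0722) and in the authors' deposited log2 values (limma adjusted p = 0.268). Eif2s2, the beta subunit of the initiation factor that brings the first tRNA, read 1475, 1475 and 1496 CPM in ON and 634, 624 and 736 CPM in OFF24. Eif4a1, the initiation helicase, read 726, 734 and 721 against 338, 379 and 346 CPM, and Eif1a fell by 1.43 on the log2 scale. Of 55 tested genes for tRNA modification and processing 24 fell and 4 rose (median -0.46). The RNA methyltransferase Nsun2 read 236, 212 and 237 against 97.0, 88.2 and 106 CPM, and Trmt6, of the tRNA adenosine methyltransferase, read 104, 87.4 and 115 against 46.4, 42.7 and 43.5 CPM. Mitochondrial ribosomal proteins had 37 falls and 2 rises among 78 (median -0.39), led by Mrps18b, which read 77.3, 88.7 and 81.2 against 28.8, 37.0 and 39.9 CPM.

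Nuclear transport, protein folding and the proteasome moved in the same direction. In the list of nuclear pore proteins and karyopherins 35 of 57 fell and 0 rose (median -0.53). Ranbp1 and Rcc1, regulators of the small GTPase RAN, read 226, 232 and 232 against 102, 90.4 and 103 CPM, and 255, 240 and 271 against 111, 102 and 110 CPM. Of 39 chaperone genes of the TRiC, prefoldin and heat shock families 25 fell and 0 rose (median -0.49). The mitochondrial chaperonin Hspd1 read 687, 652 and 709 CPM in ON and 236, 241 and 274 CPM in OFF24 (log2 -1.45 ± 0.12, edgeR adjusted p = 3.78e-08), and the cytosolic Hsp90aa1 read 1893, 1660 and 1825 against 1001, 740 and 947 CPM. TRiC subunits Cct3, Cct7 and Cct8 fell by 1.16, 1.02 and 0.88 on the log2 scale. Of 46 proteasome subunits and activators 26 fell and 1 rose (median -0.43). Psmd3, of the regulatory lid, read 474, 515 and 457 against 181, 199 and 216 CPM, and Psme3, an activator cap, read 82.4, 102 and 74.1 against 30.9, 36.1 and 31.3 CPM. The spliceosome list was lower in 26 of 62 and higher in 7 (median -0.24).

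Polyamine and amino acid genes fell within the same day. Spermidine synthase, Srm, read 86.5, 90.9 and 80.2 CPM in ON and 13.4, 13.5 and 19.4 CPM in OFF24 (log2 -2.46 ± 0.17, edgeR adjusted p = 4.6e-09). Mtap, which salvages the by-product of that reaction, read 26.5, 31.4 and 30.4 against 6.69, 7.85 and 5.66 CPM, while Sat1, the acetyltransferase of polyamine breakdown, rose from 262, 199 and 255 to 475, 427 and 427 CPM. Over the list 9 of 20 fell and 4 rose. Slc7a5, the light chain of the large neutral amino acid carrier, read 180, 194 and 196 against 29.3, 29.2 and 31.3 CPM, and its heavy chain Slc3a2 read 175, 202 and 162 against 80.7, 77.5 and 78.9 CPM. Trib3, a pseudokinase of the integrated stress response, read 36.0, 33.9 and 27.6 against 4.18, 4.39 and 3.87 CPM, and Cth, which makes cysteine from cystathionine, read 109, 87.7 and 105 against 13, 13.8 and 11.9 CPM. The integrated stress response list had 12 falls and 1 rise among 24 (median -0.36), and the asparagine, proline and glutamate list 10 falls and 2 rises among 20 (median -0.40). Glutathione genes split, with 12 lower (31.6%) and 11 higher (28.9%) among 38, against 17.4% and 17.8% of all genes. Mgst1 and Gstm1, glutathione transferases, were among those that rose (log2 1.64 ± 0.15 and 1.10 ± 0.10), with Gstm1 uncertain because its end resembles Gstm2-ps1 and another annotated gene.

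Granule genes divided by family. Of 14 tested azurophil granule genes, which myeloid cells switch on first, 9 rose and 1 fell (median 0.62). Mpo, myeloperoxidase (chromosome 11, 87793581 to 87804413), read 57.9, 67.5 and 81.9 CPM in ON and 288, 357 and 377 CPM in OFF24 (log2 2.31 ± 0.14, edgeR adjusted p = 1.35e-09). Fcnb, ficolin B, read 4.08, 4.18 and 4.65 against 19.2, 29.2 and 20.9 CPM. The serine protease Prss57 read 79.8, 65.6 and 79.8 against 210, 176 and 194 CPM. Every OFF24 library exceeded every ON library by more than 2-fold in these 3 genes, which were named by their results. In bulk samples, more cells of a type and more RNA per cell cannot be told apart.

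In the list of specific and gelatinase granule genes 14 of 33 rose (42.4%) and 7 fell (21.2%), against 17.8% and 17.4% of all genes. The list also holds stefin A genes such as Stfa2, which fell. Its falls are therefore not all of granule proteins, and the list was not counted without the stefins. Camp, the cathelicidin peptide of specific granules, read 184, 232 and 189 CPM in ON and 710, 640 and 625 CPM in OFF24 (log2 1.70 ± 0.11, edgeR adjusted p = 2.17e-09), and averaged 5167 CPM at 48 h. Lcn2, lipocalin 2 of the same granules, chosen after its value was seen, did not pass the test (log2 -0.21 ± 0.17). The summed level of the list was lower in OFF24 than in ON, at 24477 against 28896 CPM.

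That lower sum came from the stefin A genes, inhibitors of cysteine cathepsins that lie side by side on chromosome 16 (36156811 to 36455392). All 9 tested neighbours of the cluster fell. BC100530 read 6935, 7850 and 6286 CPM in ON and 3515, 3120 and 3391 CPM in OFF24 (log2 -1.07 ± 0.11, edgeR adjusted p = 3.78e-07). Stfa1 read 3961, 4081 and 3777 against 1929, 1632 and 1729 CPM. Both were about 2-fold lower, and in both the OFF24 libraries were close together. Stfa2 read 384, 356 and 319 against 89.5, 73.1 and 72.4 CPM (log2 -2.18 ± 0.12), Stfa3 read 440, 340 and 384 against 121, 94.8 and 99.5 CPM (log2 -1.89 ± 0.12), and Stfa2l1 read 81.6, 70.0 and 78.7 against 14.2, 13.5 and 11.9 CPM (log2 -2.54 ± 0.18). These were about 4-fold lower or more. The unnamed members of the cluster were chosen after their values were seen, and Gm5483 (log2 -1.26 ± 0.17), Gm5416 (-2.20 ± 0.36), 2010005H15Rik (-1.88 ± 0.21) and BC117090 (-0.91 ± 0.21) fell too. The 3' ends of BC100530, Stfa1 and BC117090, those of Stfa2 and Stfa2l1, and those of Gm5483 and 2010005H15Rik are near-identical. How reads were divided among these genes is therefore uncertain, and the 9 falls are not 9 independent measurements.

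**Figure D3:**
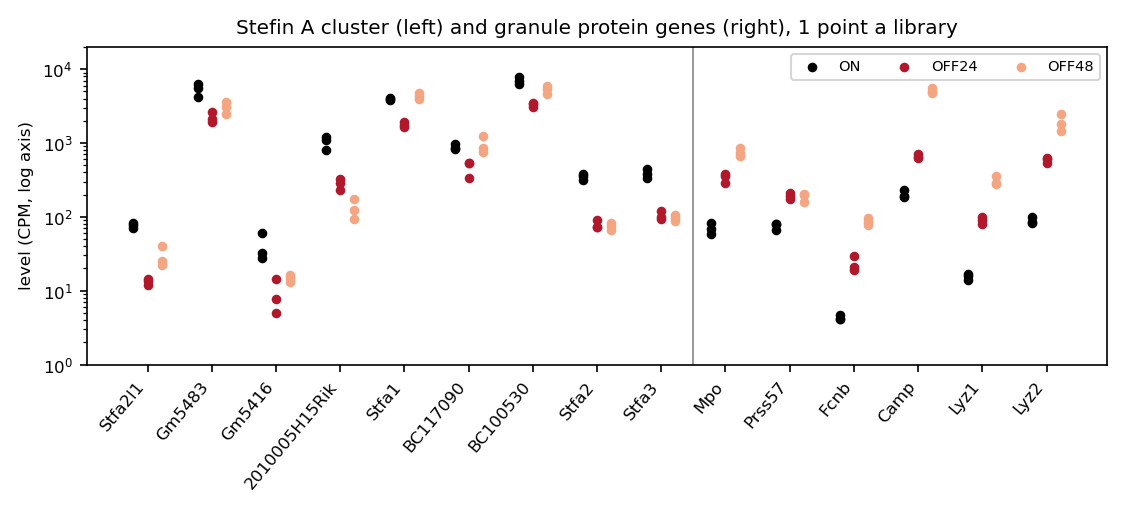
Level in CPM (log axis) of the 9 stefin A neighbours in chromosome order (left of the line) and of 6 granule protein genes (right), with a point for each ON, OFF24 and OFF48 library. The stefins are lower in OFF24 than in ON while the granule genes are higher, and Stfa1 and BC100530 are higher again at 48 h.

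Monocyte and macrophage markers formed the list with the largest share of rises, 18 of 24 tested members (75%) with 0 falls and a median of 0.78. Csf1r, the receptor for the macrophage growth factor CSF1, read 4.59, 10.1 and 7.51 CPM in ON and 28.8, 30.1 and 29.2 CPM in OFF24 (log2 1.98 ± 0.21, edgeR adjusted p = 8.58e-07). Ms4a6c, a tetra-membrane-spanning protein of myeloid cells, read 8.67, 4.67 and 8.95 against 30.5, 30.8 and 25.3 CPM, and its relative Ms4a6b 2.81, 1.97 and 2.15 against 9.2, 11.6 and 13.7 CPM. The OFF24 libraries of these genes were clear of the ON range, which their choice by result favoured. Exons of Hmgxb3 lie over the end of Csf1r on the other strand, and exons of BE692007 over that of Ms4a6c. At 48 h Csf1r averaged 23.3 CPM and F13a1 16.3 CPM, and their difference from 24 h did not pass the test (edgeR adjusted p = 0.23 and 0.271). A filter on low values came before these counts: 17 of the 41 listed monocyte genes were too low to be tested. The filter worked by group, so a gene low in ON was tested if it was high enough in OFF24 or OFF48. Where many listed genes are low, that favours rises. The same limit holds for the lectin, Siglec and adhesion lists below, with 23 of 37, 27 of 46 and 31 of 51 listed genes tested.

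Surface receptors of the innate immune system rose more often than they fell. C-type lectins and pattern receptors had 11 rises and 2 falls among 23 (median 0.70). Clec12a, an inhibitory lectin of myeloid cells, read 91.6, 103 and 96.3 CPM in ON and 209, 212 and 222 CPM in OFF24, and Clec4a2 read 20.7, 31.2 and 31.8 against 70.7, 60.3 and 68.2 CPM, the latter with an end that resembles Clec4b1. Among Siglec, LILR, PIR and CD300 receptors 10 of 27 rose and 3 fell. Cd33, a sialic acid-binding inhibitory receptor, read 417, 343 and 395 against 944, 882 and 838 CPM. The LILR pair went the opposite way: Lilrb4a read 52.8, 46.9 and 39.4 against 7.11, 6.59 and 8.04 CPM (log2 -2.67 ± 0.19, edgeR adjusted p = 4.91e-09). Its near copy Lilr4b read 24, 22.8 and 21.1 against 2.93, 2.83 and 3.87 CPM, and reads of the 2 cannot be told apart with certainty.

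Adhesion and migration genes followed. Integrins, selectins and other adhesion genes had 20 rises and 1 fall among 31 (median 0.54). The chemokine receptor Cxcr4, which holds blood progenitors in the marrow, read 134, 120 and 125 CPM in ON and 337, 307 and 297 CPM in OFF24 (log2 1.31 ± 0.10, edgeR adjusted p = 2.27e-08), and the inflammatory receptor Ccr1 read 16.3, 16.5 and 15 against 61.0, 33.0 and 40.8 CPM. The chemokine Ccl6 fell instead, from 83.4, 71.2 and 78.0 CPM to 29.3, 22 and 21.1 CPM. The surface protease Adam8 fell as well, from 62.7, 86.0 and 53.0 to 12.1, 14.4 and 11.9 CPM, as did the lipoprotein receptor relative Lrp8, from 54.3, 43.2 and 45.8 to 9.2, 9.42 and 8.04 CPM. Rgs2, an inhibitor of G protein signalling, rose from 82.1, 90.1 and 122 to 395, 403 and 406 CPM (log2 2.04 ± 0.15). The RGS and G protein list had 6 rises (24%, against 17.8% of all genes) and 0 falls among 25, with 19 not called.

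Transcription factors of myeloid fate and of the leukaemic program rose more often than they fell. Of 39 tested myeloid lineage factors 17 rose and 4 fell (median 0.38). Cebpa, the C/EBP factor that starts granulocyte and monocyte fate, read 53.8, 56.2 and 71.6 CPM in ON and 109, 111 and 132 CPM in OFF24 (log2 0.97 ± 0.12, edgeR adjusted p = 7.79e-06). Irf8, of the monocyte lineage, chosen after its value was seen, rose by 1.13 ± 0.25 on the log2 scale (edgeR adjusted p = 0.00184). Spi1, which encodes PU.1 and was chosen likewise, was not called (log2 0.29, edgeR adjusted p = 0.059). The HOXA, MEIS1 and self-renewal list, which MLL-AF9 is known to sustain, had 10 rises and 0 falls among 22 (median 0.37). Hoxa5 read 188, 146 and 173 against 416, 381 and 374 CPM, and Myb read 365, 330 and 350 against 627, 600 and 579 CPM. The ON and OFF24 libraries of Hoxa5 and Myb, named for their small p, did not overlap. Of 56 genes of MLL cofactors and chromatin regulators 14 were higher (25%) and 7 lower (12.5%), against 17.8% and 17.4% of all genes. Tet2, a DNA demethylase, was one of the rises (41.8, 43.5 and 33.3 against 92.0, 79.4 and 73.6 CPM).

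Genes of oxygen sensing and glycolysis rose at 24 h. Of 42 tested members 22 rose and 5 fell (median 0.45), including the glycolytic enzyme gene Pgk1, chosen after its value was seen (log2 0.71 ± 0.11). Egln3, the hydroxylase that marks hypoxia-inducible factor for removal and is itself one of its targets, read 76.8, 51.8 and 42.6 CPM in ON and 140, 140 and 138 CPM in OFF24 (log2 1.27 ± 0.15, edgeR adjusted p = 3.5e-06). Bnip3, a mitochondrial autophagy receptor, read 149, 132 and 79.4 against 260, 286 and 268 CPM. Pdk1, which limits the entry of pyruvate into the tricarboxylic acid cycle and was counted in the list of that cycle, read 85.2, 62.4 and 74.4 against 141, 119 and 134 CPM. For each of these genes the OFF24 libraries lay above all ON libraries, which their choice by result favoured. For Egln3 and Bnip3 the ON libraries varied more than those of OFF24. The mRNA of the factor, Hif1a, chosen after its value was seen, fell (log2 -0.53 ± 0.11).

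Egln3, Bnip3 and Pdk1 were no longer raised at 48 h. At 48 h Egln3 averaged 10.5 CPM, Bnip3 27.7 CPM and Pdk1 18.3 CPM, all below the level in ON, and the drop from 24 h was -3.73, -3.28 and -2.88 on the log2 scale (edgeR adjusted p = 1.52e-10, 1.52e-08 and 8.28e-11). Other rises that turned were Itgb7, an integrin subunit, Hdac7, a histone deacetylase, the chemokine Ccl9, and Hist1h3d, a histone H3 gene. Falls that turned were Egr1, Atf5, Stfa1 and Stfa2l1. Bnip3l, a relative of Bnip3 in the same list, did not turn by the test: it read 283, 348 and 249 CPM in ON and 556, 557 and 532 CPM in OFF24, and averaged 494 CPM at 48 h (edgeR adjusted p = 0.365 against OFF24). Pfkfb4, a regulator of glycolysis in the same list, read 24.5, 20.4 and 26.8 CPM in ON and 50.2, 41.1 and 50.3 CPM in OFF24, and was higher still at 48 h, at 63.7 CPM on average (log2 0.45 against OFF24, edgeR adjusted p = 0.0219).

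**Figure D4:**
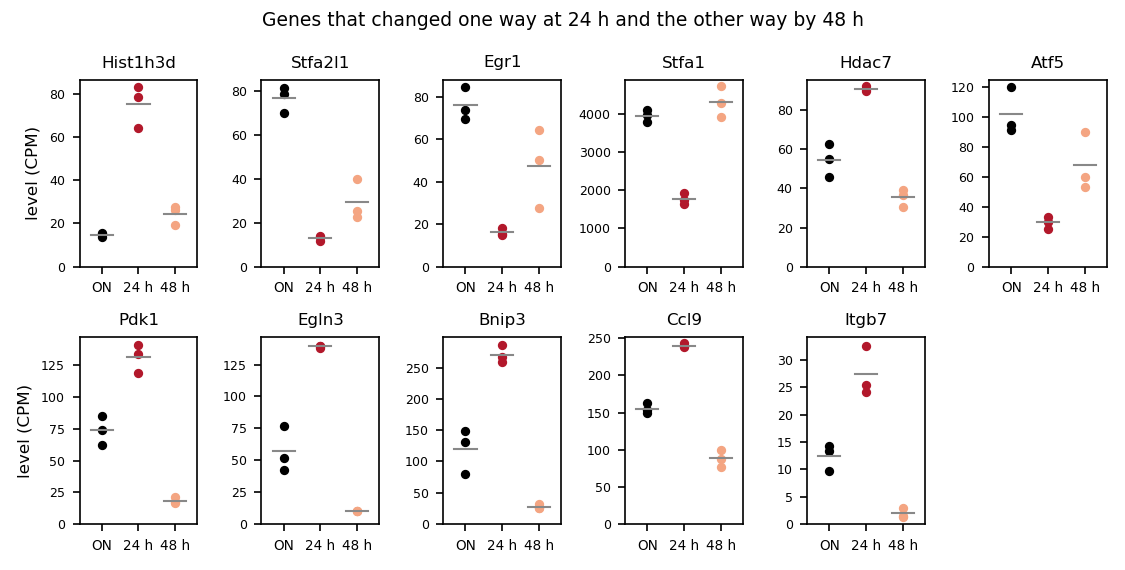
Level in CPM of 11 named genes that passed the test one way between ON and OFF24 and the opposite way, by at least 2-fold, between OFF24 and OFF48, with a point for each library and a bar at the group mean. Egln3, Bnip3, Pdk1 and Itgb7 are highest at 24 h and lowest at 48 h, while Stfa1 at 48 h is back at its ON level.

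Lysosome and autophagy genes rose by smaller amounts. Of 57 tested members 25 rose and 1 fell (median 0.29), 2 of them at least 2-fold. Map1lc3b, the LC3 protein of autophagosomes, read 97.9, 90.1 and 109 CPM in ON and 181, 170 and 167 CPM in OFF24 (log2 0.81 ± 0.12, edgeR adjusted p = 4.15e-05). Rb1cc1, a scaffold of the kinase that starts autophagy, read 36.0, 29.7 and 39.0 against 75.3, 57.8 and 64.0 CPM, and the lysosomal Grn read 435, 502 and 491 against 737, 749 and 825 CPM. The groups did not overlap for any of the 3, which were named for their small p. Iron genes had 9 falls (25%) and 6 rises (16.7%) among 36, against 17.4% and 17.8% of all genes. Among them Ncoa4, the receptor that delivers ferritin to lysosomes, rose (193, 182 and 179 against 404, 401 and 357 CPM). The iron exporter Slc40a1 rose too (16.6, 21.4 and 21.5 against 41.0, 42.7 and 41.1 CPM), while the ferritin heavy chain Fth1 fell by 0.52 on the log2 scale.

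Cyclins and survival genes changed unevenly. Of 32 tested genes of the G1 phase 10 fell (31.2%) and 7 rose (21.9%), against 17.4% and 17.8% of all genes. Ccnd2, the D-type cyclin, read 31.9, 34.4 and 24 CPM in ON and 7.11, 9.1 and 6.26 CPM in OFF24 (log2 -2.01 ± 0.21, edgeR adjusted p = 5.73e-07). The CDK inhibitors did not move as one: Cdkn1a fell (165, 174 and 130 against 56.4, 77.8 and 78.6 CPM), while Cdkn1b, chosen after its value was seen, rose by 0.63 ± 0.12 on the log2 scale (edgeR adjusted p = 0.000537). DNA replication genes had 11 falls and 1 rise among 48 (median -0.13) and mitosis genes 11 and 1 among 54 (median -0.12), shares of 22.9% and 20.4% lower against 17.4% of all genes. Replication genes among the falls were Rrm2, of ribonucleotide reductase (273, 297 and 256 against 158, 170 and 172 CPM), and the helicase subunit Mcm2, which was higher again at 48 h (154 CPM on average, against 90.1 at 24 h, edgeR adjusted p = 5.36e-05).

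In the BCL2 family 7 of 20 fell (35%) and 3 rose (15%), against 17.4% and 17.8% of all genes. The anti-death gene Bcl2 read 14.5, 11.1 and 17.5 CPM in ON and 2.51, 4.71 and 4.47 CPM in OFF24 (log2 -1.81 ± 0.30, edgeR adjusted p = 0.000125). Bcl2l1, the gene of BCL-XL, changed by -0.93 ± 0.16 and the pro-death Bmf by 1.41 ± 0.34 on the log2 scale, both chosen after their values were seen and both past the threshold. Mcl1 and Bcl2l11, chosen likewise, did not pass it (log2 0.23 and 0.54). The Bcl2a1 copies fell, Bcl2a1a by 0.83 on the log2 scale, but their ends are near-identical and cannot be counted apart with certainty.

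Interferon and MHC genes lay near or under the background. Of 30 tested interferon-induced genes 5 fell and 3 rose, and of 17 genes of MHC presentation 2 rose and 0 fell, shares near or under those of all genes. Ifitm3, an interferon-induced membrane protein, was an exception (103, 100 and 116 CPM in ON against 37.2, 50.9 and 43.5 in OFF24, log2 -1.27 ± 0.12). Cholesterol uptake genes had 5 falls (25%) and 4 rises (20%) among 20, against 17.4% and 17.8% of all genes. Of 35 tricarboxylic acid cycle genes 13 fell (37.1%, against 17.4% of all genes) and 2 rose (median -0.26): Idh3a fell (37.7, 54.0 and 37.2 against 15.5, 11 and 19.4 CPM) while the cytosolic Idh1 rose (275, 278 and 278 against 486, 509 and 482 CPM). Actin and motility genes had 17 rises (33.3%, against 17.8% of all genes) and 4 falls among 51, with gelsolin (Gsn) rising from 537, 428 and 507 CPM to 1140, 1053 and 1026 CPM and back to 567 CPM at 48 h.

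**Figure D5:**
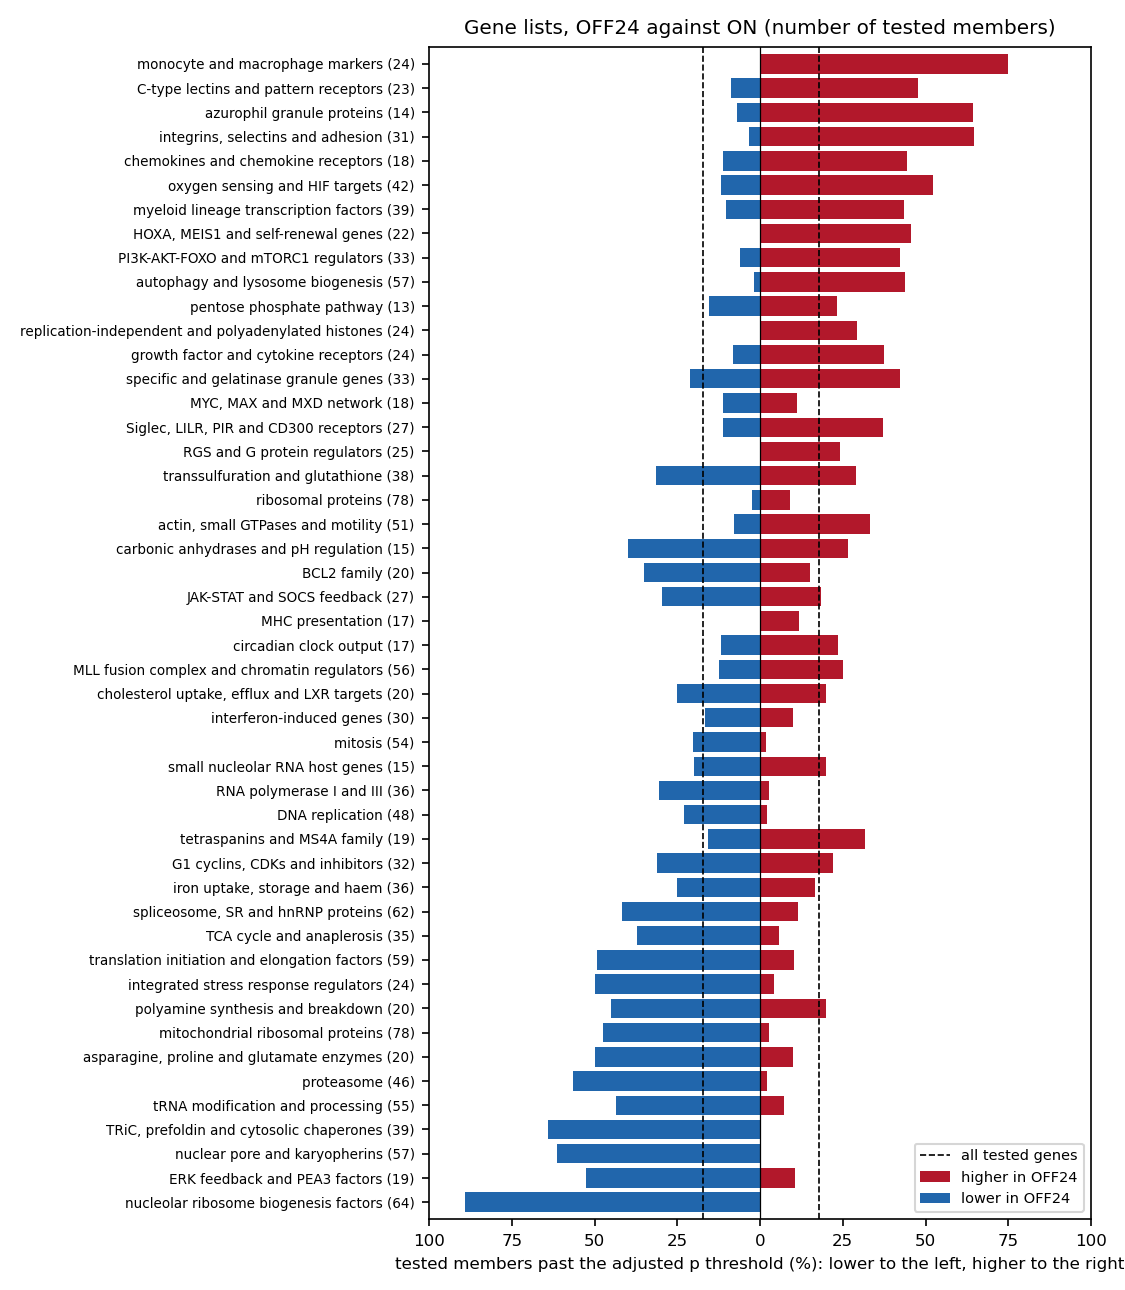
Percentage of each list's tested members (number in brackets) that passed the test with a lower level in OFF24 (blue, to the left) or a higher one (red, to the right), ordered by median log2 fold change. The dashed lines mark the shares over all tested genes, 17.4% lower and 17.8% higher, and the blue bar of nucleolar ribosome biogenesis factors and the red bar of monocyte markers reach farthest.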

How the data were processed

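The 9 libraries of 3' mRNA sequencing (3 ON, 3 OFF24, 3 OFF48) were grouped by sample title. The submitters' processing notes name HISAT2 2.0.4, featureCounts, Subread 1.5.0-p3, cutadapt 1.5, limma 3.42.2 and mm10. For the gene annotation, the strand setting and reads of several origins, the settings were not given in the sources used here. As deposited by the authors, the count table holds whole read counts per gene symbol, not normalised (24756 rows, 16962 with a count). Of its tested rows 220 repeat the counts of another row, and 26 symbols have the form of a date. Their second deposited table holds log2 expression values (10552 rows) and served only as an alternative.

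The test on counts was that of edgeR 4.0.16 (R 4.3.3): filterByExpr by group (10215 genes kept), TMM scaling, a robust quasi-likelihood fit with 1 mean per group over all 9 libraries, and Benjamini-Hochberg adjustment over all tested genes (threshold 0.05). The SE is the size of the log2 fold change over the square root of the F statistic. The fit was tested on simulated counts with known changes. The common biological coefficient of variation was 0.105. Library totals of 2420918 to 4038456 counts mean that a floor of 3 counts is 0.743 to 1.24 CPM, and since reads carry no molecular identifiers, this covers counting error only.

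The comparison, the 48 lists and the motifs were chosen with earlier results of these data known. Lists are described by counts and medians beside all tested genes. Named genes were the 15 largest rises and falls among genes past the threshold with at least 10 CPM and no overlap of libraries, the 8 largest gains and losses in CPM, the 4 tested genes of smallest p in each list (all genes of a list of 12 or fewer), and Flt3. Unnamed gene models were left out, and not every gene that the rule gives is described. Positions come from GENCODE M21 (GRCm38, also called mm10). The last 400 bases of transcripts were compared with BLAST, and a match of 200 bases at 95% identity counted as a shared end. Alternatives were other scalings, filters and tools, the log2 table, a replicate block, single rows of identical sets, and leaving out each library.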

Additional observations from a re-analysis of the deposited data

Results flagged for a closer look

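For 11 named genes the effect of withdrawal, measured against ON, differed between 24 h and 48 h in a way that reversed the direction of change between the times. Each of the 11 passed edgeR's test between ON and OFF24, and passed it in the opposite direction, by at least 2-fold, between OFF24 and OFF48. The 2-fold limit was set after the results were seen. The 2 steps share the OFF24 libraries, so chance deviations of these enter both.

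The rises that turned included 3 genes that hypoxia-inducible factor is known to drive. From 24 h to 48 h Egln3 changed by -3.73 ± 0.20, Bnip3 by -3.28 ± 0.20 and Pdk1 by -2.88 ± 0.15 on the log2 scale (SE). Itgb7, the integrin beta 7 subunit, went from 14.3, 13.3 and 9.66 CPM in ON to 25.5, 32.6 and 24.1 CPM in OFF24 and changed by -3.99 ± 0.31 to 48 h, where it averaged 1.93 CPM. Hdac7 went from 62.5, 55.0 and 45.8 to 89.9, 92.3 and 90.6 CPM and changed by -1.39 ± 0.14, and Ccl9 from 163, 149 and 154 to 239, 243 and 238 CPM and by -1.43 ± 0.11. Hist1h3d, a gene of histone H3, stood at 15.6, 13.5 and 15 CPM in ON and 82.8, 64.0 and 78.6 CPM in OFF24, and changed by -1.64 ± 0.16 to an average of 24.4 CPM.

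The falls that turned were of 2 kinds. Stfa1 rose by 1.29 ± 0.10 from 24 h to 48 h, to 4307 CPM, and Stfa2l1 by 1.22 ± 0.20, to 29.3 CPM. Egr1 rose by 1.56 ± 0.26, to 47.5 CPM, and Atf5, a transcription factor of the integrated stress response (91.6, 120 and 94.8 CPM in ON, 25.5, 33.3 and 29.8 CPM in OFF24), rose by 1.13 ± 0.18, to 67.8 CPM. Among these only Stfa1 was back at or above its ON mean of 3940 CPM. The end of Bnip3 resembles 2 other annotated genes, and exons of other genes on the opposite strand lie over the ends of Bnip3 and Hdac7. Stfa1 shares its 3' end with BC100530, which rose by 0.68 ± 0.11 from 24 h to 48 h. Stfa2l1 shares its own with Stfa2, which did not turn (log2 -0.04 ± 0.13, edgeR adjusted p = 0.847). How reads divide within these pairs is uncertain.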

How the results depend on the processing

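The count of 3603 genes changed at 24 h lay between 2854 (DESeq2) and 4200 (replicate block) over the alternatives that kept all 9 libraries or used ON and OFF24 alone. Leaving out 1 library at a time gave 2817 to 3906 (1346 to 1994 up, 1436 to 1912 down, 399 to 477 and 407 to 453 at least 2-fold), and no gene called in both fits had the opposite direction in any alternative. The counts at least 2-fold up and down moved by over 1.5 times in 1 setting, to 245 and 271 with only genes of at least 10 CPM, where fewer genes were tested. The count between OFF24 and OFF48, 2160, was 1517 to 2366 without 1 library. Upper quartile scaling gave 56.4% of the calls as rises, against 50.6%, and shifted the median of all genes to 0.07. Replicate numbers are shared by the groups, but the labels give them no meaning, and same-numbered deviations correlated at 0.076, 0.202 and 0.036. ON replicate 3 correlated best with OFF24 replicate 1 (0.111). With the replicate block 4200 genes passed, and 2701 between OFF24 and OFF48.

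Of 225 named genes that were called, 10 lost the call in at least 1 alternative and 0 changed direction, over 20 alternatives. Those described with a limit above are Eef1a1 and Mlx, and the others are not described. The fold of Etv4 and of Gdf15 moved by over 1.5 times (Gdf15 to -3.60 from -2.99 in the authors' deposited log2 values). The median of the tetraspanin and MS4A list, -0.14, became 0.06 with only genes of at least 10 CPM. Medians of the lists of JAK and STAT, MLL cofactors, BCL2, the clock, carbonic anhydrases, interferon, MHC and cholesterol genes, all within 0.1 of 0, also changed sign in at least 1 alternative. The causes were not tested. Genes near 3 counts in a library, such as Etv4 in OFF24, are limited by depth.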

Other observations

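Some RNAs that are known to stay in the nucleus were among the rises. Malat1, an abundant long noncoding RNA of nuclear speckles, read 555, 492 and 562 CPM in ON and 1278, 1227 and 1302 CPM in OFF24 (log2 1.24 ± 0.11, edgeR adjusted p = 6.64e-08). Neat1, the scaffold RNA of paraspeckles, read 247, 140 and 168 against 606, 524 and 496 CPM. Rn7sk, the small RNA that holds the elongation kinase P-TEFb inactive, read 20.4, 17.9 and 25 against 84.0, 129 and 119 CPM (log2 2.42 ± 0.17, edgeR adjusted p = 1.06e-08). A pair of coding genes of splicing control behaved alike: the kinase Clk1 read 42.1, 53.5 and 41.2 against 110, 109 and 116 CPM, and Rsrp1 378, 258 and 384 against 1295, 976 and 1029 CPM. The groups did not overlap for any of these 5 genes, all but Rn7sk chosen after their values were seen. At 48 h Neat1 averaged 290 CPM, Rsrp1 631 CPM and Malat1 928 CPM, each lower than at 24 h (edgeR adjusted p = 0.00156, 0.0168 and 0.00423), and so was Clk1 at 85.1 CPM (0.0225). Rn7sk went the other way, to 173 CPM (log2 0.62 against OFF24, edgeR adjusted p = 0.00488). How a 3' mRNA kit captured this small RNA of 331 bases was not tested, so its reads need not follow its amount.

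Over all 164 tested long noncoding RNAs of GENCODE M21, 55 rose (33.5%) and 9 fell (5.49%), with a median log2 change of 0.49. Of 9809 tested protein-coding genes 17.7% rose and 17.8% fell (median 0.03). Most long noncoding RNAs are low, and low genes have wider errors, so the shares were also taken among genes of like mean level, with the tested genes in 4 bins of equal size. In the lowest bin 29.5% of 105 long noncoding RNAs and 13.9% of 2390 protein-coding genes rose, and in the next 43.3% of 30 and 15.3% of 2486. In the bin after that 55.6% of 9 and 20% of 2491 rose. In the highest the gap was smaller, with 30% of 20 and 21.3% of 2442 higher, and 20% and 24% lower. Small nucleolar RNA host genes had 3 rises and 3 falls among 15, 20% each way, against 17.8% and 17.4% of all genes. Reads from unspliced or internally primed RNA, which a 3' library can hold, were not measured.

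By number of symbols, the stefin A cluster was the longest run of neighbours that moved one way, leaving aside protocadherin genes whose symbols share last exons. Several stefin A genes have near-identical 3' ends too. In separate measurements the stefin run is therefore shorter and need not be the longest. A run of 5 rises on chromosome 7 (43524216 to 43678298) held Cd33 and Siglece, both sialic acid-binding receptors, among zinc finger genes and Ctu1. Runs of 5 falls included Mrpl18, Tcp1, Acat2, Wtap and Sod2 on chromosome 17 (12911349 to 13040063) and Rhbdd2, Por, Tmem120a, Mdh2 and Ywhag on chromosome 5 (135632618 to 135934616). Chromosomes 18 and 19 each held a further run of 5 falls. Rises formed a run of 6 on chromosome 3 and runs of 5 on chromosomes 11 and 14. The runs whose genes are named were chosen after the results were seen. With 17.8% of all genes higher and 17.4% lower, how many such runs would arise by chance was not tested.

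The list made for replication-independent and polyadenylated histones had 7 rises (29.2%, against 17.8% of all genes) and 0 falls among 24. It mixes replacement histones with other histone genes such as Hist1h1b. Which of its transcripts carried a poly(A) tail was not measured. One of the rises, Hist2h2be, read 9.69, 4.67 and 9.66 CPM in ON and 20.9, 25.4 and 25 CPM in OFF24. The replacement histone H3f3a read 1172, 1045 and 1143 against 2079, 1890 and 1921 CPM, with counts identical to those listed for H3f3c, so the reads cannot be given to one of them. Clock genes were mixed, with 4 rises (23.5%) and 2 falls (11.8%) among 17, against 17.8% and 17.4% of all genes. Per2, a repressor of the clock, read 15.8, 13.3 and 16.1 against 34.3, 40.5 and 30.7 CPM (log2 1.23 ± 0.17, edgeR adjusted p = 1.55e-05). Genes with at least 2-fold falls spanned a median of 18850 bases in the genome (all protein-coding genes 23537, at least 2-fold rises 25023).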
